A study of Rattus norvegicus with 48 samples.

Results

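The 12 basolateral amygdala arrays of this rat study fell into 6 that were rich and 6 that were poor in markers of striatal neurons. The rich arrays were replicate 1 of the non-stressed animals (NSt) and replicates 1 and 2 of the stressed animals (St), and the poor arrays were NSt replicates 2 and 3 and St replicate 3, in both lineages. These 12 are part of 48 arrays over 4 brain areas. The classes were chosen by the measured levels of Drd1, Drd2 and Adora2a in these same arrays, so every gene of the amygdala contrast is given as a description, with no test.

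Every animal was a Sprague-Dawley male of generation F3, bred from outbred F0 females and killed at 120 days of age. Vinclozolin-lineage rats (Vin) were great-grandoffspring of females given 100 mg/kg/day of vinclozolin, an anti-androgenic fungicide, over embryonic days 8 to 14 of pregnancy, and control-lineage rats (Con) of females given the vehicle DMSO. St animals were restrained for 6 hours a day on 21 days, postnatal days 23 to 43, and NSt animals were not. Each array held RNA pooled from punches of 2 mm of 4 rats, and a Vin pool and the Con pool of the same number came from cage mates, here called a dyad group (dyad groups 1 to 3 are NSt replicates 1 to 3 and dyad groups 4 to 6 are St replicates 1 to 3). The rich class therefore holds dyad groups 1, 4 and 5 (4 St and 2 NSt arrays) and the poor class dyad groups 2, 3 and 6 (2 St and 4 NSt arrays), with 3 Vin and 3 Con arrays in each. All 12 amygdala arrays shared 1 RNA preparation day and 1 scan day.

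The basolateral amygdala is a pallial nucleus whose principal neurons release glutamate and resemble those of the cortex. The striatum lies just beside and above it. Most striatal neurons are GABAergic medium spiny neurons, of which a direct-pathway kind carries the D1 dopamine receptor, substance P and dynorphin, and an indirect-pathway kind carries the D2 dopamine receptor, the adenosine receptor Adora2a and enkephalin. The central and intercalated amygdala, also beside the basolateral nuclei, are of striatal origin too and share part of these genes. In tissue punches, fewer cells of a type and less RNA per cell cannot be told apart.

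Values are log2 probe set intensities, differences are rich minus poor on the log2 scale, and SD is over arrays. Levels of different genes cannot be set against each other, since each probe set has its own brightness. Array medians were 7.08 to 7.12 in the rich and 7.10 to 7.13 in the poor arrays, and the median rich minus poor difference of 14324 genes was -0.012. Some arrays stood apart. St-Vin 3 (poor) had 12.46 for Ttr, transthyretin, a choroid plexus product, and the highest choroid plexus levels of the 12. NSt-Con 2 (poor) had 8.72 for the neuropeptide gene Nts against 6.05 to 6.69 in the other 5 poor arrays. Both arrays were kept. In the other areas Ttr was highest in NSt-Con 1 of motor cortex (15.02), NSt-Con 2 and NSt-Con 3 of CA1 (15.04 and 15.59) and NSt-Con 3 of CA3 (14.49), called choroid-rich below, and counts are given without them. NSt-Vin 2 of motor cortex and St-Con 3 of CA1 equalled the mean of the other arrays of their group and were left out, which leaves 46 arrays.

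Drd1, the D1 dopamine receptor, had 9.62 (lowest), 9.84 (median) and 10.18 (highest) in the rich arrays, against 7.34, 8.12 and 8.39 in the poor arrays, a difference of 1.86 (3.63-fold). Drd2 had 8.47, 8.85 and 9.17 in the rich arrays, against 5.90, 6.50 and 6.97 in the poor arrays, a difference of 2.42 (5.34-fold). Adora2a, an adenosine receptor that raises cyclic AMP, had 10.16, 10.32 and 10.38 in the rich arrays, against 7.54, 7.86 and 8.66 in the poor arrays, a difference of 2.33 (5.02-fold). The classes did not overlap for any of the 3 receptors. Averaged over the 3 markers, the rich array nearest the boundary was NSt-Vin 1 at 9.49, and the poor array nearest to it was NSt-Con 2 at 8.01. Cage-mate arrays lay in the same class in all 6 dyad groups by construction of the rule.

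**Figure D1:**
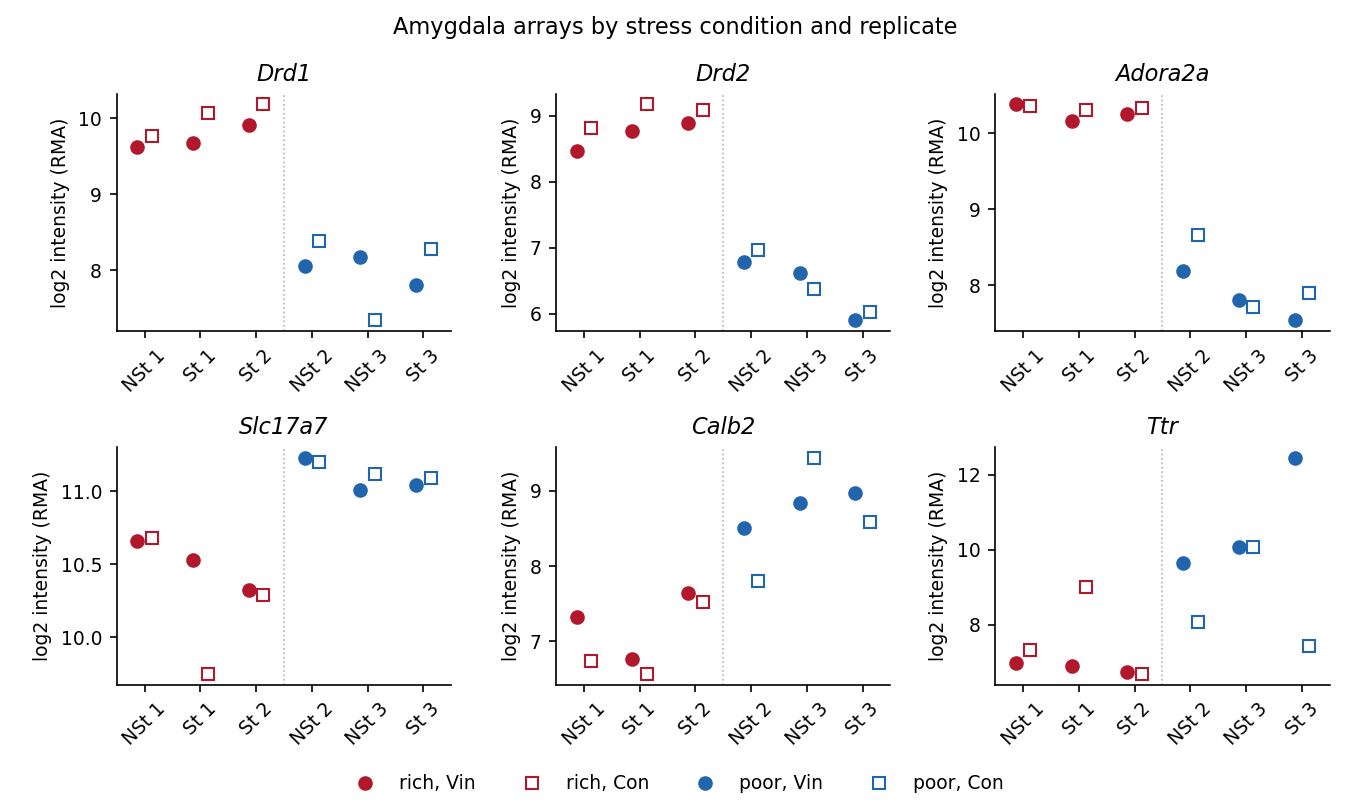
Log2 intensity of 6 genes in the 12 amygdala arrays (vertical axis), by stress condition and replicate (horizontal axis), with rich arrays left of the dotted line. Filled circles are Vin and open squares Con arrays. The 3 striatal receptors are high in all 6 rich arrays, Slc17a7 and Calb2 are low in them, and Ttr overlaps between the classes.

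The promoters of a direct-pathway gene (Drd1), an indirect-pathway gene (Drd2), a peptide gene (Tac1) and a pallial gene (Slc17a7, described further on) are shown because these genes differ in opposite directions between the classes. Each window runs from 250 bases before to 50 bases after the RefSeq gene start on GRCr8, 5′ to 3′ on the gene's strand. Capitals mark GC boxes, GGGCGG or its reverse complement.
Drd1, chr17:10546354-10546653, plus strand: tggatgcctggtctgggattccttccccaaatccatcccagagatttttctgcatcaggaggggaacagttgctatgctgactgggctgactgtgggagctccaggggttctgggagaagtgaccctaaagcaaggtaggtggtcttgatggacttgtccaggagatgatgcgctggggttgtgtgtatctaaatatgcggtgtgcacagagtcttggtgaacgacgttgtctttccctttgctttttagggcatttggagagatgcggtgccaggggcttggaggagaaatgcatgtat
Drd2, chr8:58605153-58605452, plus strand: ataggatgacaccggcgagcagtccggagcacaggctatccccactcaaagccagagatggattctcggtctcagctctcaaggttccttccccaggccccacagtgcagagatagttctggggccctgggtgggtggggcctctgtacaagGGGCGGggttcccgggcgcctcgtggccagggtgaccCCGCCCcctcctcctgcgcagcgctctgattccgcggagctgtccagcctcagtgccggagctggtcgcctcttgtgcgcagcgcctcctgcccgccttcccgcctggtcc
Tac1, chr4:36645333-36645632, plus strand: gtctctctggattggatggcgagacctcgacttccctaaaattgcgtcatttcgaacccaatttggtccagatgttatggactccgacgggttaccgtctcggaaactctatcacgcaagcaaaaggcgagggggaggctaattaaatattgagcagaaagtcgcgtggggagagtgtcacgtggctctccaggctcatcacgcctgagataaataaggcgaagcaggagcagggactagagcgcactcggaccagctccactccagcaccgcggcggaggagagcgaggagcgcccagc
Slc17a7, chr1:104785955-104786254, plus strand: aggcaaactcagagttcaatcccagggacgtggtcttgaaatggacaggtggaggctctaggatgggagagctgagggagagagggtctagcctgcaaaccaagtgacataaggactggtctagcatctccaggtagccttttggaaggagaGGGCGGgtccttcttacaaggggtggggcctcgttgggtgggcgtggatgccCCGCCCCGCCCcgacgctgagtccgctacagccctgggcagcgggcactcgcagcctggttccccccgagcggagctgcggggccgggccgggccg
The Drd2 window held 2 GC boxes and the Slc17a7 window 3, of which a pair overlap by a base, and the Drd1 and Tac1 windows held 0. Over the 51 windows of 47 of the 58 genes that were higher by 1 or more in rich arrays, 49.0% held GGGCGG on either strand, 7.84% held the TATA box TATAAA and 0.0% the cyclic AMP response element TGACGTCA. Over all 33365 windows the shares were 33.1%, 14.2% and 1.83%. These are letter matches and not binding sites. Adora2a and Penk are named without a promoter.

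Across the array, 74 of 27342 probe sets were higher by 1 or more in the rich arrays (0.271%) and 5 were lower by as much (0.0183%), and at a difference of 0.5 the counts were 297 (1.09%) and 116 (0.424%). With 1 probe set per gene, 58 of 14324 named genes were higher (0.405%) and 5 lower (0.0349%), and 16 of the 74 probe sets carry no gene symbol. The 58 had a median difference of 1.32 and ran from Kcnab1, a potassium channel subunit just inside the limit at 1.00, to Scn4b at 2.84, and Ngef lay just outside at 0.99. Of the 14324 genes 6391 had positive and 7868 negative differences. Ranges of the 6 and 6 arrays did not overlap for 672 genes that were higher (4.69%) and 308 that were lower (2.15%). Of the 58 genes, 57 had ranges apart, and only Hpca, the calcium sensor hippocalcin, overlapped. The first principal component of the 12 arrays took 39.89% of the variance and set the classes apart, with rich arrays at 6.7 to 18.8 and poor arrays at -16.7 to -6.0. Class accounted for 37.39% of the variance over all probe sets, dyad group for 68.21%, stress for 9.32% and lineage for 6.794%. Each share was computed alone, and the share of dyad group holds those of class and stress, which dyad group sets.

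The genes of medium spiny neuron signalling were higher in the rich arrays almost throughout. Of 29 on the array, 27 had positive differences, 24 had ranges apart and 18 passed 1, with a median of 1.18. Scn4b, the sodium channel beta-4 subunit and the gene with the highest difference of all, had 9.70, 9.93 and 10.51 in the rich arrays, against 6.93, 7.20 and 7.67 in the poor arrays, a difference of 2.84 (7.14-fold). Ppp1r1b, which encodes the dopamine-regulated phosphatase inhibitor DARPP-32, had 9.32, 9.67 and 10.10 in the rich arrays, against 7.53, 7.87 and 8.27 in the poor arrays (difference 1.82). Neither gene overlapped between the classes. Gnal, the G protein alpha subunit that couples Drd1 and Adora2a to adenylyl cyclase, was 2.02 higher, Gng7, its gamma partner, 1.93, Adcy5, the main striatal adenylyl cyclase, 1.46, and Rgs9, a GTPase accelerator, 2.11. Adcy5, like Kcnab1 and Ngef above, was named after its value was seen. All 4 had ranges apart.

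Phosphodiesterases, which break down cyclic nucleotides, differed by family member. Of 19 on the array 7 were higher with ranges apart, and 3 passed 1: Pde7b (2.30), Pde10a (1.84) and Pde1b (1.59). Pde8b (0.94) and Pde1c (0.83) were also apart, while the list's median was 0.05. The regulators of G protein signalling had a median of -0.03 over 17 genes, with 3 apart and higher and 2 apart and lower. Beside Rgs9, Rgs8 (0.92) and Rgs2 (0.91) were apart and higher, whereas Rgs5, which marks pericytes, was 0.37 lower and apart. In both families a few members lay far above a median near 0.

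The indirect-pathway genes on the array were Drd2 and Adora2a, which chose the classes, and Penk. Penk, the enkephalin precursor, had 11, 11.08 and 11.20 in the rich arrays, against 7.94, 8.88 and 9.71 in the poor arrays, a difference of 2.19 (4.55-fold). Its level was near constant among rich arrays (SD 0.075, n = 6) and spread among poor ones (SD 0.755, n = 6). Of 9 direct-pathway genes, 3 passed 1 and 7 had ranges apart, with a median of 0.56. Tac1, the substance P precursor, had 9.16, 9.47 and 9.88 in the rich arrays, against 6.83, 7.25 and 7.58 in the poor arrays (difference 2.25), and Pdyn, the dynorphin precursor, had 8.13, 8.23 and 8.55 in the rich arrays, against 6.49, 6.69 and 7.03 in the poor arrays (difference 1.53). Neither peptide gene overlapped between the classes. Slc35d3, a transporter-like protein needed for D1 receptor traffic in mice, was 0.86 higher, and the transcription factors Ebf1 and Isl1 were 0.56 and 0.39 higher, all 3 with ranges apart.

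Most other dopamine, adenosine and opioid genes lay near 0. Of 15 dopamine and adenosine genes, the 3 markers were the only ones above 1, the median was 0.04, and the A1 adenosine receptor Adora1 differed by 0.19 with overlap. Maob, monoamine oxidase B of astrocytes, was 0.27 lower and apart. Among 8 opioid genes, Penk and Pdyn stood alone above 1, the kappa receptor Oprk1 was at 0.28 with overlap, and the nociceptin receptor Oprl1 was 0.27 lower and apart.

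Transcription factors of the striatum differed in both directions. Of 12 on the array, 6 were higher with ranges apart and 1, Dlx1 (-0.26, named after its value was seen), was lower. Foxp1 had 9.32, 9.46 and 9.73 in the rich arrays, against 7.52, 7.76 and 8.48 in the poor arrays (difference 1.61), and Meis2 had 9.44, 9.62 and 9.80 in the rich arrays, against 8.13, 8.25 and 8.31 in the poor arrays (difference 1.39). Dlx5, a homeobox gene of GABAergic precursors, was 1.05 higher. The classes did not overlap for these 3 genes.

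Over the 16 interneuron genes the median was 0.02, with 8 positive and 8 negative, 4 apart and higher and 3 apart and lower. Gad2, which makes GABA, had 11, 11.20 and 11.31 in the rich arrays, against 9.62, 9.89 and 10.18 in the poor arrays (difference 1.29), and Slc32a1, the vesicular GABA transporter, was 1.19 higher, Gad1 0.76 and the interneuron peptide Npy 0.57. These were the 4 apart and higher. Calb2, described further on, had the lowest difference of the list at -1.60 and was among the 3 apart and lower. Of 6 genes of striatal cholinergic interneurons, Slc5a7, the choline transporter, was 1.25 higher and Ecel1 0.55 higher, both apart, and Slc18a3, the vesicular acetylcholine transporter, was at 0.23 with overlap.

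Markers of the neighbouring nuclei were mixed. Of 11 central and intercalated amygdala genes 3 were apart and higher, among them Gpr101 (1.15), an orphan receptor, and Prkcd (0.43), a kinase of the lateral central nucleus. Nts was at 0.86 with overlap. Of 6 claustrum and endopiriform genes, Synpr (0.76) and Gnb4 (0.39) were apart and higher, and Lxn (0.63) and Nr4a2 (0.40) overlapped. No gene of the globus pallidus (7), hypothalamus (15) or leptomeninges (14) lists had ranges apart, with medians of -0.04, -0.06 and 0.01. Over all genes 4.69% were apart and higher and 2.15% apart and lower, so 0 in lists this short is near that share. All 15 hypothalamus genes were negative, where 7868 of 14324 genes were. Of 11 cortical layer genes 4 were apart and higher and 1 lower, with Pcp4, a calmodulin-binding protein also found in striatum, at 1.38 and Fezf2, a factor of deep-layer neurons, at -0.54. Thalamus and habenula genes (7) had a median of 0.00, hippocampal genes (13) of -0.04 and blood cell genes (7) of -0.05.

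**Figure D2:**
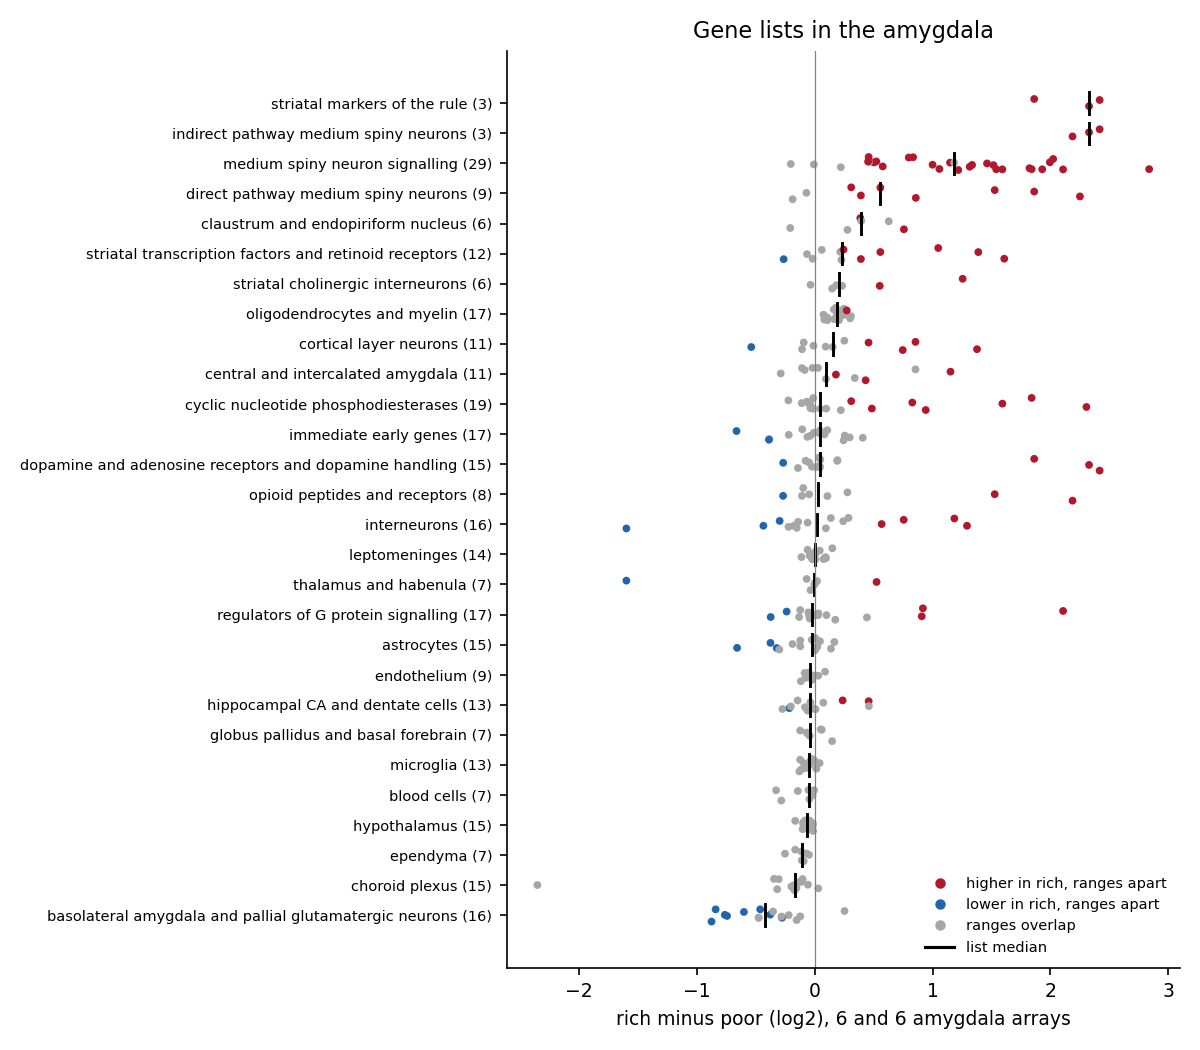
Rich minus poor difference (horizontal axis, log2) of each gene in 28 lists (vertical axis, with the number of genes on the array). Red genes were higher and blue genes lower with ranges apart, grey genes overlapped, and the bar is the list median. Medium spiny neuron lists lie to the right, and the basolateral and pallial list, with a median of -0.42, lies to the left.

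Genes of pallial glutamatergic neurons were lower in the rich arrays. Of 16 basolateral and pallial genes, 15 had negative differences and 8 had ranges apart, with 0 reaching 1 in size and a median of -0.42. Slc17a7, the vesicular glutamate transporter VGLUT1, had 9.75, 10.43 and 10.68 in the rich arrays, against 11.01, 11.11 and 11.23 in the poor arrays, a difference of -0.74. Nr2f2 (COUP-TFII) was at -0.76, Neurod6, a factor of cortical pyramidal neurons, at -0.88, Etv1 at -0.84 and Nptx1, a secreted pentraxin of glutamatergic synapses, at -0.60. The classes did not overlap for any of these 5 genes. Slc17a7, the glutamatergic marker of the labelled tissue, ran from 9.75 to 11.23 over all 12 arrays.

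Of the 5 genes lower by 1 or more, 4 had ranges apart. Calb2, the calcium buffer calretinin, had 6.57, 7.05 and 7.64 in the rich arrays, against 7.80, 8.72 and 9.44 in the poor arrays (difference -1.60). C1ql3, a secreted synaptic organiser of excitatory neurons, had 7.78, 9.01 and 9.53 in the rich arrays, against 9.90, 10.46 and 10.51 in the poor arrays (difference -1.47). Bhlhe22, a pallial transcription factor, was at -1.37 and Slit1, a repulsive axon guidance ligand, at -1.02. Ttr had 6.70, 6.95 and 9.02 in the rich arrays, against 7.45, 9.86 and 12.46 in the poor arrays, and it overlapped. Its difference of -2.35 was -1.79 without St-Vin 3, -3.85 in Vin arrays alone and -0.85 in Con arrays alone. Slc9a4 and Syt17 (both -0.93), Nptxr (-0.93), Dgkg (-0.92) and Ptpn3 (-0.91) followed, of which Dgkg overlapped.

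Genes of other cell types differed by less. All 17 oligodendrocyte and myelin genes had positive differences, between 0.07 and 0.31 (Mbp, myelin basic protein, at 0.31), with a median of 0.19 and 1 of them apart (Ugt8 at 0.27). Their summed level was 151.1 to 154.6 in the rich arrays and 148.2 to 151.7 in the poor arrays. Of 15 choroid plexus genes 14 were negative and 0 were apart. Their summed level was 95.2 to 98.8 in the rich arrays and 97.3 to 109.8 in the poor arrays, and their median difference was -0.17. All 7 ependyma genes were negative as well, with a median of -0.11, where 7868 of all 14324 genes were negative and 6391 positive. The part of myelin, choroid plexus and ependyma in the amygdala differences was not tested. Of 15 astrocyte genes 3 were apart and lower, with Itih3 at -0.66 and Agt, angiotensinogen, at -0.38, while microglia (13 genes) and endothelium (9) had 0 apart. With 4.69% of all genes apart and higher and 2.15% apart and lower, 0 in lists this short is near that share. Among 17 immediate early genes, Jun (-0.66) and Nr4a3 (-0.39) were apart and lower, and Egr1 was at 0.41 with overlap.

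The difference was examined within each stress condition and lineage. Across 14324 genes, the rich minus poor difference within St and that within NSt correlated at r = 0.743, and those of Vin and of Con arrays at r = 0.825, which describes genes and not independent replicates. Within St 66 genes were higher by 1 or more and within NSt 44, of which 42 were shared, 63.6% of the St genes and 95.5% of the NSt genes. Vin arrays alone gave 52 and Con arrays alone 62, with 50 shared, 96.2% of the Vin genes and 80.6% of the Con genes. Genes lower by 1 or more agreed less, with 10 within St and 7 within NSt, 4 of them shared (40.0% and 57.1%), and 4 in Vin and 13 in Con arrays, 3 of them shared (75.0% and 23.1%). All 58 genes above 1 were higher within St and within NSt. Scn4b differed by 3.22 within St and 2.49 within NSt, and Drd2 by 3.01 within St and 1.95 within NSt. The rule placed these arrays with their values known, so this likeness is no independent support for it.

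**Figure D3:**
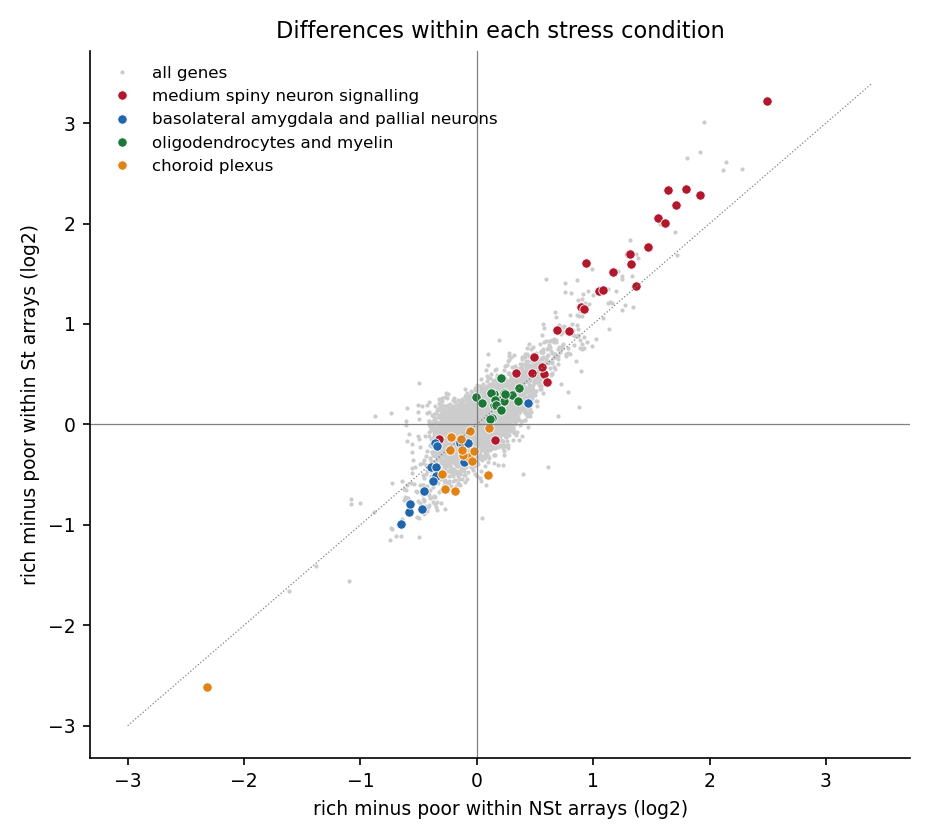
Rich minus poor difference of each of 14324 genes within NSt arrays (horizontal axis, log2) and within St arrays (vertical axis, log2), with 4 gene lists coloured and the line of equal difference dotted. Medium spiny neuron genes run along the upper right, up to 3.22 within St and 2.49 within NSt for Scn4b, and pallial genes along the lower left.

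Marker levels were also read in the 3 other areas, although array medians differ by area (6.76 to 6.805 for motor cortex, 7.11 to 7.17 for CA1, 7.34 to 7.39 for CA3), so no test was made between areas. Drd2 averaged 8.87 ± 0.25 in rich and 6.45 ± 0.42 in poor amygdala arrays (SD, n = 6 each), and ranged from 5.27 to 5.73 in motor cortex, 5.61 to 6.11 in CA1 and 5.87 to 7.50 in CA3. Adora2a averaged 10.30 ± 0.081 in rich and 7.97 ± 0.40 in poor arrays, and ranged from 5.84 to 6.05, 6.13 to 6.79 and 6.50 to 8.27 in the same areas. The upper end in CA3 came from the poor dyad groups. CA3 NSt-Con 2 had 9.31 for Drd1, 7.50 for Drd2, 8.27 for Adora2a and 10.28 for Penk, and CA3 NSt-Vin 3 had 8.82, 6.86, 7.62 and 9.52. All 6 rich CA3 arrays lay at 7.85 or below for Drd1 and at 8.30 or below for Penk. The 4 CA3 arrays with the highest Drd1, NSt-Con 2, NSt-Vin 3, NSt-Con 3 and St-Vin 3, all belonged to dyad groups that were poor in the amygdala, while NSt-Vin 2 (7.58) and St-Con 3 (7.53) of the same dyad groups lay among the rich CA3 arrays.

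The dyad groups were next compared in the areas that had no part in the rule, with study group (stress by lineage) and class in 1 limma model. The 3 markers did not pass the threshold in any area. In motor cortex their differences were 0.11 ± 0.060 for Drd1, 0.05 ± 0.058 for Drd2 and -0.05 ± 0.041 for Adora2a (SE, 6 rich and 5 poor arrays), and in CA1 0.09 ± 0.099, -0.10 ± 0.098 and -0.24 ± 0.096 (6 and 5 arrays). In CA3 they were -0.42 ± 0.25, -0.40 ± 0.20 and -0.46 ± 0.225 (6 and 6 arrays), with Benjamini-Hochberg adjusted p from limma of 0.429, 0.339 and 0.316. Scn4b was at 0.04, 0.21 and -0.68 and Penk at 0.29, 0.14 and -0.54 in motor cortex, CA1 and CA3, also short of the threshold, although Penk passed in motor cortex with the dyad group as a random block (adjusted p = 0.0471, limma). The block correlation there was -0.182, and a negative value narrows the SE of a difference between dyad groups.

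**Figure D4:**
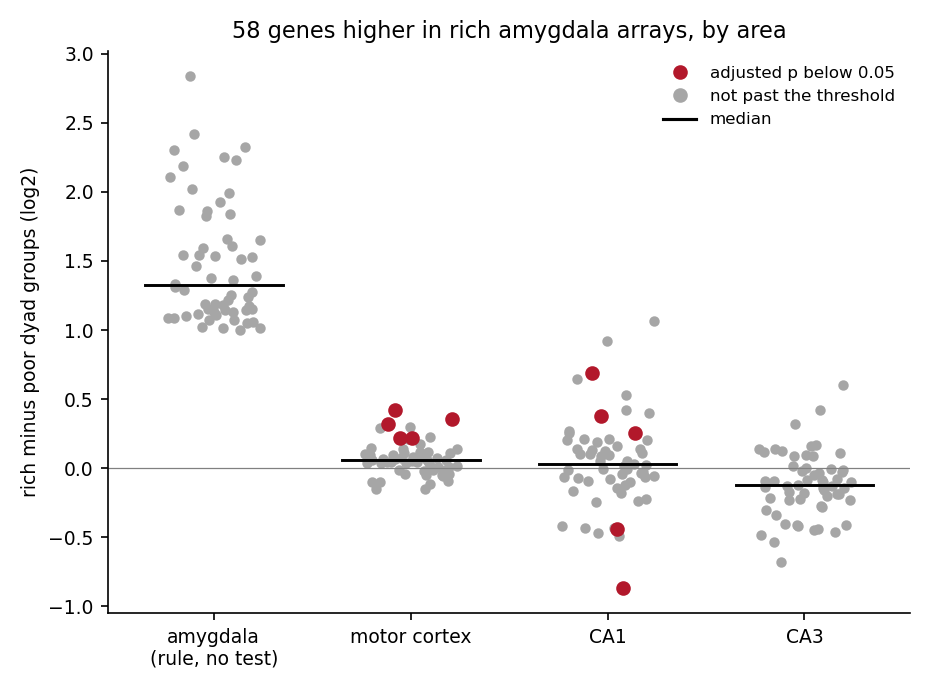
Rich minus poor difference (vertical axis, log2) of the 58 genes higher by 1 or more in rich amygdala arrays, in the amygdala, where the rule chose the classes, and in motor cortex, CA1 and CA3. Red points passed an adjusted p of 0.05 (limma), grey points did not or were not tested, and bars are medians, which are 1.32 in the amygdala and 0.06, 0.03 and -0.13 in the other areas.

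In motor cortex 545 of 27342 probe sets rose in the rich dyad groups (1.99%) and 492 fell (1.8%). Of the 58 genes, 5 rose (8.62%, where 2.81% of all genes did) and 0 fell (where 0.859% did). At an unadjusted p below 0.05, 15 of the 58 were higher and 4 lower, where 13.5% and 7.69% of all genes were. With the block 8 of the 58 rose and 0 fell, where 1133 of 27342 probe sets rose and 910 fell. The 5 were Syt10 (0.42), Meis2 (0.36), Gnal (0.32), Pde1b (0.22) and Chst15 (0.22). Their differences were small beside those in the amygdala, and the median over the 58 was 0.06. Among genes past the threshold, the largest rise was that of Htr2c, the serotonin 2C receptor, at 1.33 ± 0.31 (adjusted p = 0.0401, limma). It had 7.05 to 10.48 in the rich and 6.69 to 7.61 in the poor arrays, which overlapped. Htr2c is also abundant in choroid plexus, whose 15 genes had a median difference of 0.61 here with 0 called (1 with the block). Of these, Ttr (2.52), Kl (1.39) and Kcnj13 (1.39) had larger differences than Htr2c but did not pass in the fit without the block. Of 17 oligodendrocyte genes Mbp (0.34) and Cnp (0.29) rose (5 rose with the block), and of 9 endothelium genes Tek fell by 0.27 (4 fell with the block), as did Rgs5 by 0.43. Cnp and Tek were named after their values were seen. The part of choroid plexus, myelin and vessels was not tested. Atp2b4, a plasma membrane calcium pump, rose by 0.66, Hpcal4, a calcium sensor, by 0.53 and Pcdh17, a protocadherin, by 0.50. Hpcal4 had 9.97 to 10.34 in the rich and 9.47 to 9.72 in the poor arrays, without overlap. Slc17a6, the vesicular glutamate transporter VGLUT2, fell by 0.54, with 6.37 to 6.92 in the rich and 6.98 to 7.36 in the poor arrays, and C14h1orf146 fell by 0.73. Of the pallial list, 4 of 16 rose (Lypd1, Rspo2, Cck and Slc17a7) and 2 fell (Slc17a6 and Neurod1), and Slc17a7 was thus 0.19 higher in motor cortex and 0.74 lower in the amygdala of the same dyad groups. The motor cortex count was 211 without the choroid-rich array, which is rich, 303 with scan day as a term and 2043 with the dyad group as a random block. All 1037 probe sets of the fit without the block, and so the 12 leading named genes, passed with it as well. With the negative block correlation (-0.182), which narrows the SE, this is no check on counting cage-mate pools as independent. The counts below are without the block. The count was 8 without NSt replicate 1, 593 without NSt replicate 2, 33 without NSt replicate 3, 442 without St replicate 2 and 0 without St replicate 3.

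In CA1 155 probe sets rose (0.567%) and 47 fell (0.172%). Of the 58 genes, 3 rose (Syt10 at 0.69, Lrrk2 at 0.38 and Rasd2 at 0.26) and 2 fell (Lrrc10b at -0.86 and Hpca at -0.44), 5.17% and 3.45%, where 0.803% and 0.161% of all genes did. With the block Lrrk2 rose and Lrrc10b and Hpca fell, where 46 of 27342 probe sets rose and 20 fell. Lrrc10b, which stood 2.00 higher in rich amygdala arrays, thus had the opposite sign in CA1, with 6.87 to 7.56 in the rich and 7.82 to 8.64 in the poor arrays. Among genes past the threshold, the largest change was that of Cpne4, a calcium-dependent membrane-binding protein, at -2.12 ± 0.35 (adjusted p = 0.0402, limma). It had 6.61 to 9.33 in the rich and 9.46 to 11.93 in the poor arrays. Cabp7 (-0.89) and Bhlhe22 (-0.87) fell too, and the classes did not overlap for Bhlhe22, which had 6.67 to 7.46 in the rich and 7.70 to 8.68 in the poor arrays. Chrna5, a nicotinic receptor subunit, rose by 0.97 and Anxa4, an annexin, by 0.85. Myelin genes moved with them, and 10 of 17 oligodendrocyte genes rose and 0 fell (Mal 0.51, Cldn11 0.50, Mbp 0.34), with a median of 0.36 and 17 of 17 positive (4 rose with the dyad group as a block). Choroid plexus genes were lower too, with 15 of 15 negative, a median of -0.64, 0 called and Ttr at -2.75 ± 0.86, and the part of either was not tested. Of all genes 58.8% were positive in CA1. With the dyad group as a block 66 probe sets passed, all of them among the 202, and 6 of the 12 genes with the highest or lowest differences stayed past the threshold (Anxa4, Prkar2b, which tied with Chrna4 for the last place, Cpne4, Cabp7, Bhlhe22 and Lrrc10b). The count was 0 with class alone, 0 with all 12 arrays, 56 without the choroid-rich arrays, which are both poor, 0 without NSt replicate 1, 1115 without NSt replicate 2, 383 without NSt replicate 3, 1 without St replicate 1, 17 without St replicate 2 and 0 without St replicate 3.

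In CA3 80 probe sets rose (0.293%) and 16 fell (0.0585%), and 0 of the 58 genes passed in either direction (limma, Benjamini-Hochberg), with 4 higher and 8 lower at an unadjusted p below 0.05, where 17.2% and 3.04% of all genes were. Over all genes 0.398% rose and 0.0279% fell. Of the 58, 15 were positive, where 60.7% of all genes were, and the median was -0.13. Nr2f2, which was lower in rich amygdala arrays, rose by 0.40 (adjusted p = 0.0493), with 8.39 to 8.69 in the rich and 8.05 to 8.36 in the poor arrays (limma). Lypd1 (0.50) and Lhx2 (0.29) of the pallial list rose with it, as did Ptpro, a receptor phosphatase, at 0.57. Npas4, an activity-dependent transcription factor, fell by 0.70, with 7.19 to 7.53 in the rich and 7.69 to 8.56 in the poor arrays. All of these had the same adjusted p of 0.0493, and with the dyad group as a block it was 0.0533 (limma) and 0 probe sets passed. The 15 choroid plexus genes were all negative here (median -0.34) and the 17 oligodendrocyte genes as well (median -0.27), with 0 called, and their part was not tested. The count was 0 with class alone, 0 without the choroid-rich array, which is poor, and without each dyad group, other than 1879 without NSt replicate 2, the dyad group of the CA3 array with the highest striatal markers. In CA1 leaving out the same dyad group gave 1115, and its arrays there had 7.35 (Vin) and 7.44 (Con) for Drd1. The cause was not tested.

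Of all genes, motor cortex had 3.67% called, CA1 had 0.963% and CA3 had 0.426%. Motor cortex and CA1 shared 15 called genes, 2.85% of 526 and 10.9% of 138, and motor cortex and CA3 shared 11, 2.09% of 526 and 18.0% of 61. CA1 and CA3 shared 1, 0.725% of 138 and 1.64% of 61. Only Nsmf, a synapse-to-nucleus messenger of NMDA receptors, was called in all 3, at 0.31 (motor cortex), -0.29 (CA1) and 0.39 (CA3), and it was at -0.33 in the amygdala (named after its values were seen). These counts are from the fits without the dyad group as a block. With the block 0 probe sets passed in CA3, so no gene was shared with it, and Nsmf there had an adjusted p of 0.0533 (limma). The 3 areas share the animals of the dyad groups and not the punch.

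Within each amygdala class the lineages were compared, a contrast the rule did not use. No probe set passed for Vin minus Con in the rich arrays (0.0%, with 1328 at an unadjusted p below 0.05), in the poor arrays (0.0%, 1123) or for the difference between the classes (0.0%, 913), by limma over 3 and 3 arrays per class. Scn4b averaged 9.77 ± 0.082 in rich Vin and 10.33 ± 0.29 in rich Con arrays (SD, n = 3 each), a difference of -0.56 ± 0.17 (SE) with an adjusted p of 0.786 (limma). In the poor arrays its difference was -0.06 ± 0.17. Drd1 was at -0.27 ± 0.21 and Drd2 at -0.32 ± 0.23 in the rich arrays, against 0.01 ± 0.21 and -0.02 ± 0.23 in the poor arrays. Of the 58 genes, 55 were negative in the rich arrays (median -0.20) and 38 in the poor arrays (median -0.06), where 42.2% and 53.8% of all genes were negative. At an unadjusted p below 0.05, 17 of the 58 were lower and 0 higher in the rich arrays, and 2 were lower and 0 higher in the poor arrays. Over all genes 1.14% were lower and 1.98% higher in the rich arrays, and 1.8% and 1.56% in the poor arrays. In the poor arrays 14 of 15 choroid plexus genes were positive for Vin minus Con (median 0.13, Ttr 2.20 ± 0.74) with 0 called. Ttr had 12.46 in St-Vin 3, the array with the highest choroid plexus levels, against 7.45 in St-Con 3. It had 9.65 in NSt-Vin 2 against 8.08 in NSt-Con 2, and 10.08 in NSt-Vin 3 against 10.07 in NSt-Con 3. The part of choroid plexus was not tested. The striatal genes vary together, so the counts are not independent measurements. Among probe sets with 1 gene symbol, the smallest p-values in the rich arrays belonged to Or6c219 (0.60, adjusted p = 0.311, limma), Olr193 (0.28), both olfactory receptor genes, and Ric8b (-0.24). In the poor arrays they belonged to St3gal1 (0.32), Bmp5 (0.34) and Npas4 (0.34). For the difference between classes they were Lbh (0.40), Syt2 (-0.55) and Or6c219 (0.73). Or6c219 and Olr193 belong to a large family in which related sequences can share probes.

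With the dyad group as a fixed term, which leaves 4 residual degrees of freedom against 8 without it, 1 probe set without a gene symbol, 10861211, passed in the rich arrays (-0.61 ± 0.055, adjusted p = 0.0185, limma) and for the difference between classes (-1.14 ± 0.078, adjusted p = 0.00137). Vin minus Con was -0.62, -0.69 and -0.52 in the 3 rich dyad groups and 0.49, 0.54 and 0.56 in the 3 poor dyad groups. It averaged 7.92 ± 0.29 in rich Vin, 8.53 ± 0.32 in rich Con, 8.36 ± 0.17 in poor Vin and 7.83 ± 0.18 in poor Con arrays (SD, n = 3 each). Without the dyad group term its adjusted p for the difference between classes was 0.996. It was singled out after its values were seen. Without St replicate 2, 1 probe set passed in the rich arrays, 10875062, also without a symbol. On all arrays its adjusted p was 0.271, and 0.132 with the dyad group term (limma).

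The class division also bears on the stress comparison, since 4 of 6 St arrays and 2 of 6 NSt arrays were rich. Without class in the model 0 probe sets passed (0.0%, with 1130 at an unadjusted p below 0.05), and with class 0 passed as well (0.0%, with 2042). Drd1 averaged 9.32 ± 1.02 in St and 8.56 ± 0.95 in NSt arrays (SD, n = 6 each). Its St minus NSt difference was 0.76 ± 0.51 without class and 0.15 ± 0.15 with class (SE, adjusted p 0.996 and 0.818, limma). Scn4b was at 0.89 ± 0.79 without class and -0.06 ± 0.15 with it, Tac1 at 0.80 ± 0.62 and 0.06 ± 0.13, and Penk at 0.38 ± 0.67 and -0.39 ± 0.25. The classes and the 58 genes were chosen on these same arrays, and with more rich arrays in St a positive sign without class and a smaller difference and SE with class follow from that choice. All 58 genes were positive without class, between 0.15 and 0.89 with a median of 0.42, and 22 were positive with class, between -0.42 and 0.23 with a median of -0.04, where 43.5% and 42.5% of all genes were positive. Their median SE was 0.38 without class and 0.11 with it, against 0.057 and 0.055 over all genes. Slc17a7 was at -0.48 ± 0.21 without class and -0.26 ± 0.11 with it. The genes with the smallest p-values were Fbxo2 (-0.22), Grm2, the metabotropic glutamate receptor 2 (-0.49), and Arrb2 (-0.24) without class, and Grm2 (-0.38), Coro1a (-0.23) and Tmem196 (-0.48) with class, none of which passed.

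**Figure D5:**
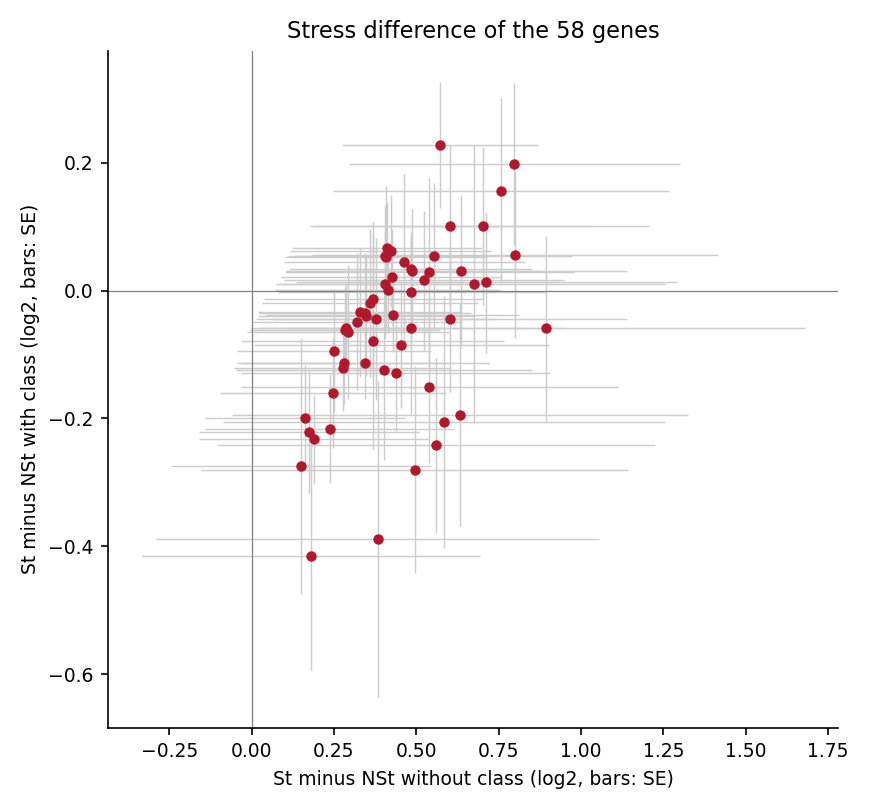
St minus NSt difference in the amygdala of the 58 genes higher in rich arrays, from a model without class (horizontal axis, log2) and with class (vertical axis, log2), with bars of 1 SE. Every gene lies right of 0 without class, and 22 lie above 0 with class.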

How the data were processed

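Gene expression was measured on Affymetrix whole-transcript 1-colour arrays. The authors deposited log2 values, made with Partek and RMA per the submitters' processing notes; versions and genome build are not given in the sources used here. The number of arrays limits precision. Of 27342 probe sets 15097 have 1 gene symbol, 323 several and 11922 none, and symbols were checked against RefSeq on GRCr8 by gene number (15067 matched, 0 changed). A gene with several probe sets is represented by its brightest in the amygdala. Tests used limma 3.58.1 (lmFit, eBayes) in R 4.3.3 on all probe sets, with Benjamini-Hochberg adjustment at 0.05; the code was tested on simulated data. The replicate block is dyad group, paired through cage mates per the labels, as a random effect (duplicateCorrelation, statmod 1.5.0) in the class and stress fits and as a fixed term in the lineage fits. The pairing was examined on deviations of arrays from their study group means. Vin and Con arrays of a dyad group correlated above 0.1 in 6 of 6 amygdala and 3 of 5 motor cortex pairs. In CA1 it was 5 of 5 and in CA3 5 of 6 pairs. Pairs of unlike replicate number did so in 3 of 12, 3 of 10, 1 of 10 and 2 of 12, in that order of areas. In groups with 2 arrays used, the deviations mirror each other. Pools of other rats were the replicates. Class belongs to whole dyad groups, 3 rich and 3 poor, so the class fits without the block count cage-mate pools as independent. The classes, the 28 gene lists and the comparisons were chosen with earlier results of these data known. Named genes are the markers, the 15 highest and 15 lowest differences, up to 5 per list, and per tested comparison the 6 highest and 6 lowest past the threshold, or, with fewer than 3 past it, the 3 genes of smallest p. Alternatives were a filter at the 30th percentile of brightness, quantile normalization, trend and robust eBayes, the block, class alone, scan day, all 12 arrays and leaving out arrays.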

Additional observations from a re-analysis of the deposited data

Results flagged for a closer look

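Of 326 groups of 6 arrays examined for 1 array far from the rest, 23 had one, where chance gives about 1 in 20. Among the poor amygdala arrays NSt-Con 2 stood apart for Nts (8.72, the others 6.05 to 6.69), Lrrc10b (7.60, the others 6.07 to 6.35), Gng7 (9.08), Etv1 (10.20) and Isl1 (5.51), and for the mean levels of the striatal transcription factor list (6.767) and the hippocampal list (7.248, the others 6.931 to 7.00). St-Vin 3 stood apart for the choroid plexus genes Kl (6.87), Clic6 (6.23) and Kcnj13 (7.33), for the mean of the choroid plexus list (7.319, the others 6.489 to 6.715) and for Arrb2 (7.59). NSt-Vin 3 stood apart for Syt17 (9.14) and NSt-Con 3 for the mean of the hypothalamus list (6.918).

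Among the rich amygdala arrays St-Con 1 stood apart for Ttr (9.02, the others 6.70 to 7.32), for the mean of the choroid plexus list (6.589) and for Htr2c (9.80). St-Con 2 stood apart for Isl1 (6.01), Rgs2 (9.38) and Ncan (8.04), NSt-Con 1 for Agt (8.41, the others 8.88 to 8.93), St-Vin 1 for Slc32a1 (9.15) and NSt-Vin 1 for C14h1orf146 (5.30).

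Probe set 10861211 differed between the classes in its Vin minus Con difference, by -1.14 in the limma fit with the dyad group as a fixed term (adjusted p = 0.00137), and its adjusted p without that term was 0.996.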

How the results depend on the processing

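In the amygdala, lowering the limit to 0.5 gave 297 probe sets higher and 116 lower, Con arrays alone gave 15 lower, and leaving out 1 dyad group gave 66 to 86 higher and 4 to 9 lower. Of 1584 amygdala gene values under alternatives 1564 moved by less than 1 SD, 20 moved by more and 0 reversed. In motor cortex the count of probe sets past the threshold was 2043 with the replicate block, 211 without the choroid-rich array, 668 with class alone, 303 with a scan day term, and 0 to 712 without 1 dyad group. In CA1 it was 66 with the block, 404 with a filter on dim probe sets, 94 after quantile normalization, 56 without choroid-rich arrays, 0 with class alone, 0 with all 12 arrays, and 0 to 1115 without 1 dyad group. A scan day term could not be fitted in CA1, where the arrays used of each study group shared 1 scan day. In CA3 it was 0 with the block, 274 with the filter, 0 after quantile normalization, 0 without the choroid-rich array, 0 with class alone, and 0 to 1879 without 1 dyad group. The cause was not tested; fewer arrays enter where arrays are left out. For lineage the replicate block, there a fixed term, gave 1 probe set in rich arrays and 1 for the difference between classes, and leaving out 1 dyad group gave 0 to 1 in rich arrays. The block changed no stress count. Of 1506 tested gene values 1121 kept their side of the threshold, 380 were no longer past it, 5 newly passed and 0 called values reversed. The 3 pools per class and lineage limit precision.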
